A study of Mus musculus with 50 samples.

Results

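The change in gene expression of the mouse frontal cortex between adolescence, at postnatal day 35 (P35), and adulthood, at postnatal day 70 (P70), was described from RNA sequencing. Libraries were chosen by the developmental stage given in their labels, which left 20 of the 50 libraries of the series, 10 at P35 and 10 at P70. Each age held 5 wild-type (WT) mice and 5 mice labelled heterozygous (Het) for *Setd1a* (Setd1a+/-), whose tm1d allele from a knockout-first design causes loss of function. All 4 groups came from crosses of heterozygous males with wild-type females, the study's methods describe all subjects as male, and the strain label is C57BL/6NTac while the methods give a mixed C57BL/6NTac and C57BL/6J background. The mice were weaned before P35 and housed in single-sex groups. Each library is 1 mouse and holds all cell types of the dissected tissue, since its RNA came from whole homogenate of left and right frontal cortex. The homogenate was made in a reagent for synaptic protein extraction. Litter and day of collection are not in the labels used here, and where they differ between the ages they cannot be told apart from age.

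In rodents, this interval runs from after weaning, through puberty, to young adulthood. By its start the neurons of the cortex have been born and have migrated to their layers, while oligodendrocytes, which wrap axons in the lipid-rich membrane called myelin, are still being added, synapses are pruned, and perineuronal nets form around fast-spiking interneurons. Setd1a encodes a methyltransferase that places methyl groups on lysine 4 of histone H3, a mark of active promoters.

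Total counts per library ranged from 37147164 to 43907318 across the 20 libraries, with a median of 37989492 at P35 and 38615836 at P70. Levels are given as CPM, counts divided by the total of their library on a common scale, after scaling by the trimmed mean of M values (TMM), and levels of different genes are compared only per exon length (RPKM). Of 21974 protein-coding genes in the files, 15788 passed the low-count filter and were tested.

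*Setd1a* (ENSMUSG00000042308) was examined first, since its allele defines the genotypes. Its level was 77.1 ± 3.39 CPM (SD, n = 5) in P35 WT, 81.2 ± 1.51 in P35 Het, 78.3 ± 3.77 in P70 WT and 76.8 ± 7.36 in P70 Het libraries. Single libraries ran from 74.2 to 82.6 CPM in P35 WT, from 79.7 to 83.0 in P35 Het, from 74.2 to 83.5 in P70 WT and from 69.3 to 88.7 in P70 Het. The mean of Het was above that of WT at P35 and below it at P70, where 3 of 5 Het libraries lay below every WT library and 1 above. The ranges overlapped at both ages, so the gene-level count did not separate the genotypes and does not check those labels. Of the exonic bases of *Setd1a*, 52.3% also belong to the annotated gene *Gm49388*, and a fragment over exons of both was counted for both. *Gm49388* itself was at 60.0 ± 3.25, 64.5 ± 1.58, 61.2 ± 2.21 and 60.8 ± 4.72 CPM (SD, n = 5) in the same 4 groups. The age effect on *Setd1a* on the log2 scale was −0.03, with a standard error of 0.037 and an adjusted p of 0.606. In all 20 libraries *Xist*, the RNA of the inactive X chromosome, had at most 16 counts and 4 Y-linked genes together had at least 4711, which is the pattern of male tissue.

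The tissue label was checked against marker genes. *Slc17a7*, the vesicular glutamate transporter of cortical projection neurons, had a mean of 309 RPKM at P35 and 281 at P70. Markers of neighbouring regions were present too. The 20 genes of a striatum list summed to 1072 to 2348 CPM in P35 libraries and 814 to 2644 in P70 libraries, and *Drd1*, the dopamine receptor of striatal and some cortical neurons, had a mean of 10.4 RPKM at P35 and 10.7 at P70. The olfactory bulb list of 10 genes summed to 144 to 309 CPM at P35 and 115 to 289.9 at P70, and the choroid plexus list of 11 tested genes to 7.36 to 12.4 and 6.49 to 43.4. None of the genes in these 3 lists was called between the ages, beside 20.6% of all tested genes. The lists for meningeal fibroblasts (0 of 18) and for hippocampus and thalamus (1 of 15, all lower) gave 1 call together. The 1 call was *Iyd*, an iodotyrosine deiodinase (−0.91). It was near the floor, at 0.15 to 0.51 CPM at P35 and 0.05 to 0.32 at P70, and the ages overlapped. Its call was lost in 4 of 34 alternative settings, among them RNA integrity as a covariate and all 50 libraries in 1 fit.

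In a principal component analysis of log2 CPM, component 1 held 20.1% of the variance and 55.2% of its sum of squares lay between the ages. Scores ran from −15.7 to −5.43 in the 10 P35 libraries. Of the 10 P70 libraries, P70 WT 5 (−8.01) and P70 Het 5 (−9.11) lay among the P35 libraries and the other 8 lay above them. P70 WT 3 had the highest score, 32.3. Across genes it also spread most around the mean of its group, with an SD of 0.298 in log2 CPM. P70 Het 5 followed with 0.259. Distances between libraries (root mean square of log2 differences) averaged 0.336 for pairs of the same age and genotype, 0.341 for pairs of the same age and other genotype, and 0.369 for pairs of the same genotype and other age. These distances include the spread between mice, so pairs of different age were only slightly farther apart than pairs within a group.

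**Figure D1:**
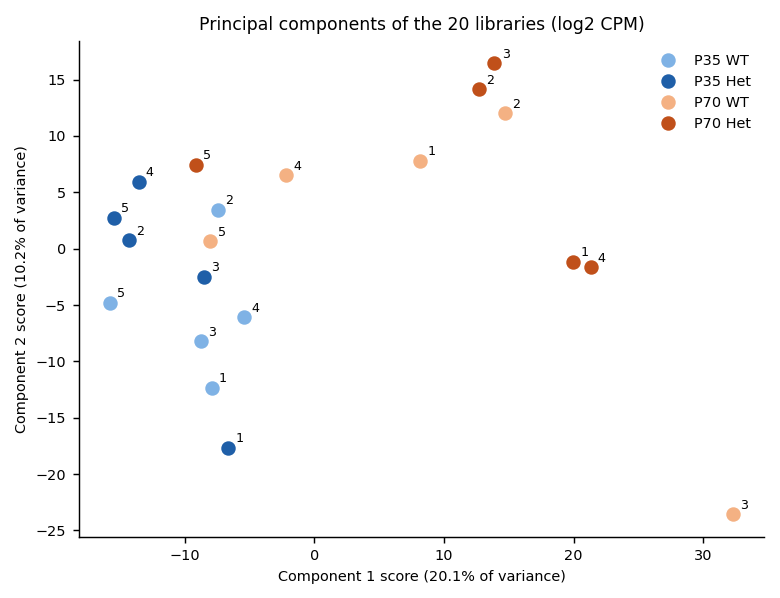
Scores of the 20 libraries on principal components 1 and 2 of log2 CPM, with the replicate number beside each point and the group in colour. P70 WT 5 and P70 Het 5 lie among the P35 libraries on component 1, at −8.01 and −9.11, and P70 WT 3 lies farthest to the right, at 32.3.

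Many genes changed and most changed little. By edgeR's quasi-likelihood test with genotype as a covariate and Benjamini-Hochberg adjustment, 3256 of 15788 tested genes (20.6%) had an adjusted p under 0.05 and are termed called. A value in brackets after a gene is its log2 fold change unless another unit is given. Of these, 1665 (10.5% of tested genes) were higher and 1591 (10.1%) lower at P70, and 5377 genes had an unadjusted p under 0.05. A change of over 1.5-fold was estimated for 87 called genes that rose and 128 that fell, and over 2-fold for 23 and 25. The groups of 10 did not overlap for 63 genes that were higher in every P70 library than in any P35 library (0.399% of tested genes) and for 101 that were lower (0.640%). All 50 libraries in 1 fit gave 1591 called genes, and RNA integrity as a covariate gave 2454. With the 2 P70 libraries numbered 5 left out together, a setting chosen after the data were seen, 4575 genes were called, and leaving out single libraries gave 2685 to 3918. The balance between directions depended on scaling, since scaling by library size alone called 1338 higher and 1884 lower.

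Earlier intervals gave larger changes. Fitted in the same way on their own 20 libraries, 11134 of 15606 genes (71.3%) were called between embryonic day 14 (E14) and E18, 12315 of 15802 (77.9%) between E18 and P7, and 12882 of 15929 (80.9%) between P7 and P35. The median absolute log2 fold change over tested genes was 0.34, 0.40 and 0.41 in those intervals and 0.08 from P35 to P70. Called genes over 2-fold numbered 2460, 2421 and 3045 in those intervals, against 48 from P35 to P70. Neighbouring intervals share libraries, so these counts are given side by side only. The study's methods name frontal brain regions for embryos but frontal cortex for mice after birth. Between E18 and P7, age and dissection therefore cannot be told apart.

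The age effect was then estimated within each genotype. The 2 fold changes of a gene compare different libraries, but the calls of a genotype also depended on libraries of the other. Without P70 Het 5 the WT count given below, 644, became 773, and without P70 WT 3 the Het count of 1197 became 1512. In WT mice 644 genes were called (4.08% of tested genes), 335 higher (2.12%) and 309 lower (1.96%). In Het mice 1197 were called (7.58%), 579 higher (3.67%) and 618 lower (3.91%). With DESeq2 the counts were 1008 in WT and 1720 in Het. They were 278 and 1061 with RNA integrity as a covariate, and 171 and 487 with all 50 libraries in 1 fit. Of the 644 and 1197 genes, 391 were called in both, which is 60.7% of the WT list and 32.7% of the Het list. All 391 had the same sign. Of the 644 genes called in WT, 632 (98.1%) had the same sign in Het, and of the 1197 called in Het, 1175 (98.2%) had the same sign in WT. Across all tested genes the 2 sets of log2 fold changes had a Pearson r of 0.52 and a Spearman rho of 0.59, and across the genes called in WT an r of 0.90. These coefficients are across genes, which are not independent replicates, and are given as a description. In the 644 genes called in WT the median absolute log2 fold change was 0.25 in WT and 0.21 in Het, and in the 1197 called in Het it was 0.26 in Het and 0.19 in WT, so in each list the estimate was larger in the genotype that chose it.

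The difference between genotypes was tested directly as the age by genotype interaction. By edgeR, 0 of 15788 genes (0%) had an adjusted p under 0.05 and 451 had an unadjusted p under 0.05. DESeq2 and limma-voom also called 0, with 433 and 434 genes at an unadjusted p under 0.05. A p that misses the threshold does not show that the values did not differ.

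The counts within a genotype rest on single libraries more than the pooled count does. The WT count of 644 fell to 337 without P35 WT 1, 368 without P35 WT 3, 345 without P35 WT 5 and 394 without P70 WT 2. The Het count of 1197 became 655 without P35 Het 1, 647 without P35 Het 2, 595 without P35 Het 5, 692 without P70 Het 1, 791 without P70 Het 2, 556 without P70 Het 3, 590 without P70 Het 4, and 2316 without P70 Het 5. With both P70 libraries numbered 5 left out, 1272 genes were called in WT and 2577 in Het. A larger count in Het than in WT is therefore not a measured difference between the genotypes.

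**Figure D2:**
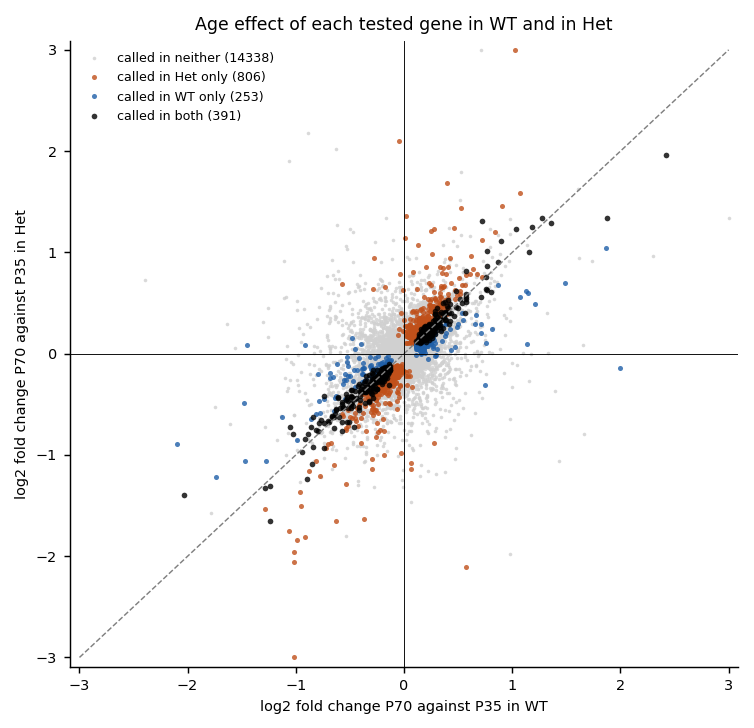
Log2 fold change from P35 to P70 of each of 15788 tested genes in WT (horizontal) and in Het (vertical), coloured by whether the gene was called in neither, one or both, with the dashed line of equal change. The 391 genes called in both lie in the quadrants of equal sign, and 4 genes beyond 3 on either axis are drawn at the edge.

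The genes with the smallest p were led by oligodendrocyte and immature neuron genes on the falling side. Of the 12 falling genes with the smallest p, 6 belong to the myelin list described further on, among them *Tspan2*, *Mog*, *Mag*, *Ugt8a* and *Cldn11*. *Gsn* encodes gelsolin, which severs actin filaments and is abundant in oligodendrocytes, and had the smallest p of all. Its lowest, median and highest levels were 85.9, 94.3 and 109 CPM in the 10 P35 libraries and 47.3, 58.5 and 67.8 in the 10 P70 libraries (log2 fold change −0.71, standard error 0.040, adjusted p = 1.47e-10). Every P70 library lay below every P35 library, and the log2 fold change was −0.77 in WT and −0.66 in Het. The remaining falling genes were *Marcksl1*, *Tet1*, *Cbx6*, which encodes a chromobox protein of Polycomb complexes, *Apc*, a regulator of Wnt signalling and microtubules, and *Sirt2*, a deacetylase of tubulin found in myelin.

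On the rising side, *Il33* had the smallest p. It encodes a cytokine kept in the nucleus, which in brain is found in oligodendrocytes and astrocytes. Levels were 8.54, 10.1 and 13.4 CPM (lowest, median, highest) at P35 and 18.9, 24.4 and 29.6 at P70, with no overlap (log2 fold change 1.21, standard error 0.082, adjusted p = 3.22e-09). The rise was 1.18 in WT and 1.25 in Het on the log2 scale. *Hsf4*, a heat shock transcription factor, went from 7.04, 9.37 and 10.1 CPM to 11.6, 15.6 and 18.9, again with no overlap (log2 fold change 0.71, standard error 0.064, adjusted p = 2.19e-07). *Epdr1*, a lysosomal protein of the ependymin family, moved less, from 96.2, 101.9 and 110.4 CPM to 116, 125 and 135, and its 2 ages were also separate (log2 fold change 0.31, standard error 0.029, adjusted p = 3.79e-07).

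*Fbxw15*, an F-box protein gene with close paralogs beside it, was low at both ages. It had 0.0786, 0.249 and 0.368 CPM at P35 and 0.707, 1.07 and 1.51 at P70 (log2 fold change 2.19, standard error 0.20, adjusted p = 2.19e-07). Its libraries did not overlap, but 11.2% of its exonic bases are shared with another annotated gene and reads of near-identical copies may be split between them, so its level is uncertain. Among the other rising genes with the smallest p were *Slc4a11*, a borate and proton transporter (1.077), *Abca8a*, a lipid transporter of oligodendrocytes (1.01), *Resp18*, a protein of secretory granules (0.33), and *Upf2*, a factor of nonsense-mediated decay (0.32). *H2-T22*, a class I gene (0.43), and *Flywch1*, a zinc finger gene (0.24), share 29.4% and 25.1% of their exonic bases with other genes. *Aktip*, an adaptor of vesicle transport that binds AKT (0.29) and *Ankrd45*, an ankyrin repeat protein (0.31) complete the list.

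**Figure D3:**
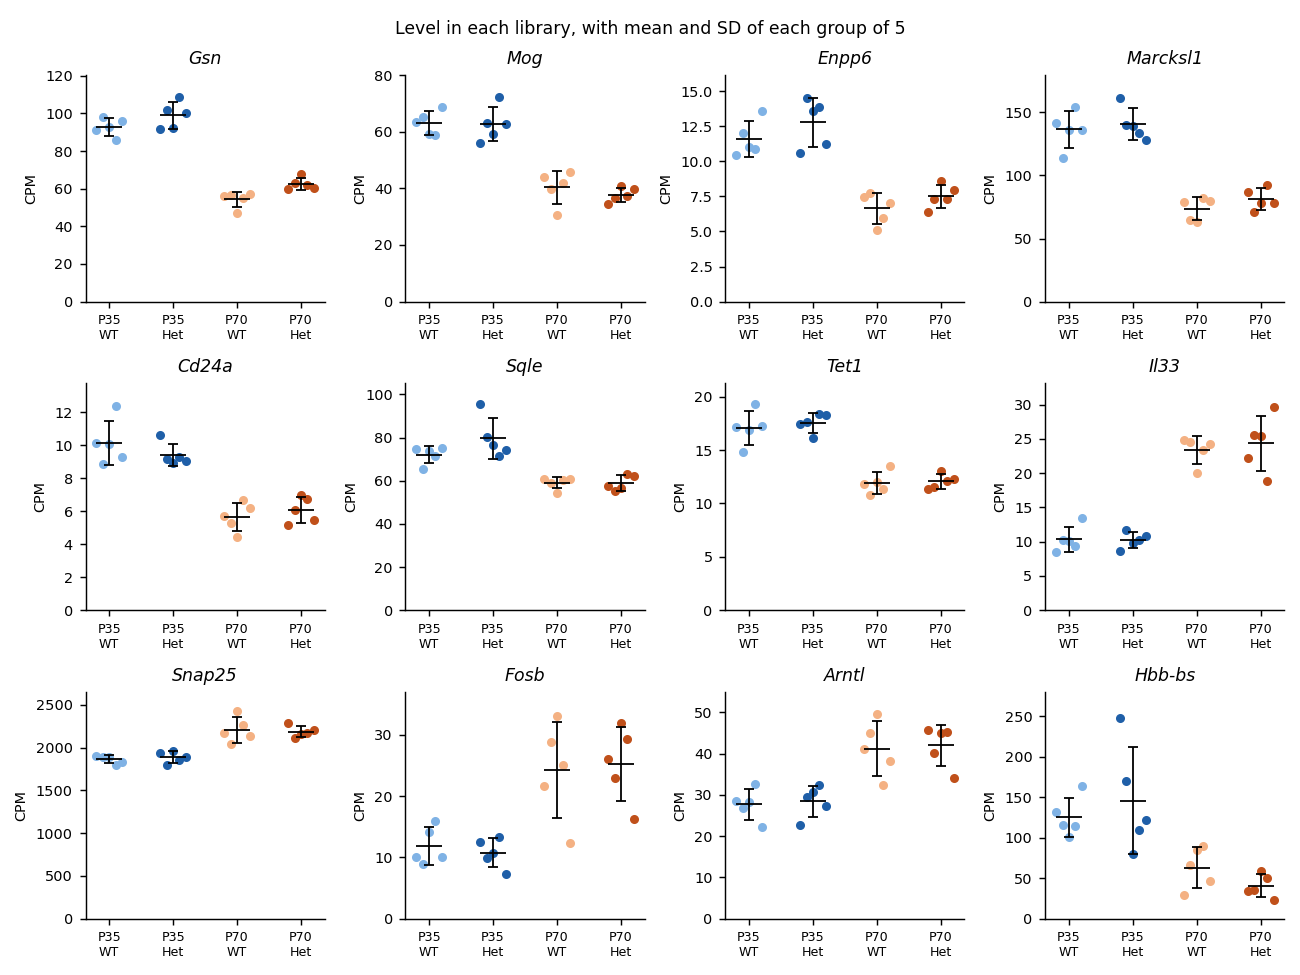
Level in CPM (vertical, from 0) of 12 genes in each of the 20 libraries, with the 4 groups side by side and the mean and SD of each group of 5 in black. *Gsn*, *Mog*, *Enpp6*, *Marcksl1*, *Cd24a*, *Sqle* and *Tet1* are lower and *Il33* and *Snap25* higher in every P70 library than in any P35 library, whereas the ages overlap for *Fosb*, *Arntl* and *Hbb-bs*.

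Among transcripts of mature oligodendrocytes, more fell than rose. In the list for myelin and mature oligodendrocytes, 16 of 30 genes were called lower and 5 higher, beside 10.1% and 10.5% of all tested genes. The median log2 fold change of the list was −0.31, against 0.00 over all tested genes. All 50 libraries in 1 fit gave 6 lower and 2 higher. The summed level of the list was 5502, 6449.6 and 7624 CPM (lowest, median, highest) at P35 and 4200.4, 4950.2 and 5646 at P70, a ratio of means of 0.758, and 9 of 10 P70 libraries lay below every P35 library. The most abundant gene, *Mbp*, made up 32.0% of the sum. Bulk RNA cannot tell fewer cells of a type from less RNA per cell, here or for the other cell types named.

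*Mog*, a protein of the outermost myelin layer, gave 56.0, 63.0 and 72.2 CPM at P35 and 30.6, 39.6 and 45.8 at P70 (log2 fold change −0.69, standard error 0.059, adjusted p = 1.40e-07), without overlap. *Mbp*, which compacts the cytoplasmic faces of myelin, fell less, from 1706, 2041 and 2386 CPM to 1409, 1583 and 1836 (log2 fold change −0.35, standard error 0.049, adjusted p = 4.46e-05), and 8 of 10 P70 libraries were below every P35 library. The fall in these genes was of like size in each genotype, at −0.65 in WT and −0.73 in Het for *Mog* and −0.34 and −0.36 for *Mbp*. The 5 members called higher were *Il33*, *Qdpr* (log2 fold change 0.36), *Anln* (0.36), *Car2* (0.20) and *Hapln2* (0.18). *Qdpr* encodes a reductase that regenerates tetrahydrobiopterin, *Car2* a carbonic anhydrase, *Anln* an actin-binding protein, and *Hapln2* a link protein at nodes of Ranvier, so they are not structural proteins of compact myelin. *Opalin*, a membrane protein of oligodendrocytes (−0.36), was also called lower, but lost its call in 22 of 35 alternative settings, DESeq2 among them.

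Genes of oligodendrocyte precursors and of their differentiation were called in the falling direction only. Of 21 tested, 14 were called lower and 0 higher (median −0.19), with 3 lower when all 50 libraries were fitted together. Called genes were 66.7% of the list, beside 20.6% of all tested genes. *Enpp6*, a choline phosphodiesterase that marks newly forming oligodendrocytes, was at 10.4, 11.6 and 14.5 CPM at P35 and 5.09, 7.32 and 8.58 at P70 (log2 fold change −0.78, standard error 0.079, adjusted p = 9.89e-07). Its libraries did not overlap, and its fall was the largest in the list. *Pdgfra*, the growth factor receptor that defines precursors, had a smaller but equally separate shift, from 45.3, 46.9 and 50.1 CPM to 37.1, 39.5 and 42.8 (log2 fold change −0.24, standard error 0.031, adjusted p = 1.73e-05). Falls were also called for *Rras2*, a small GTPase of myelination (−0.39), *Gpr17*, a receptor of committed precursors (−0.37), and *Bmp4*, a growth factor of the lineage (−0.36). The summed level of the list was 670.1 to 796 CPM at P35 and 626 to 717 at P70, with *Fyn*, a kinase that neurons also express, as its most abundant gene (17.6% of the sum).

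Genes of the cell cycle and DNA replication were at low levels in these cortices, and the members called all fell. In the list, 13 of 30 were called lower and 0 higher (median −0.20), a share of 43.3% beside 20.6% of all tested genes. With all 50 libraries in 1 fit 2 were lower, and 9 of 10 P70 libraries had a summed level below every P35 library. *Top2a*, the topoisomerase of dividing cells, had 3.01, 4.35 and 5.11 CPM at P35 and 1.26, 2.74 and 3.32 at P70 (log2 fold change −0.73, standard error 0.12, adjusted p = 0.000273), and 7 of 10 P70 libraries lay below all P35 libraries. *Mki67*, a marker of cycling cells, had 3.29, 3.91 and 5.46 CPM at P35 and 1.80, 2.62 and 3.57 at P70 (log2 fold change −0.58, standard error 0.12, adjusted p = 0.00148), and here 8 of 10 P70 libraries were below every P35 library. *Cenpf*, a kinetochore protein (−0.89), and *Aurkb*, a mitotic kinase (−0.67), fell too, the call of *Aurkb* being lost in 6 of 34 alternative settings.

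The promoter of *Top2a* is shown because members of the list fell and many hold a short motif. It is taken from RefSeq (GRCm38.p6), covers chr11:99024140-99024439 on the minus strand from 250 bases before to 50 bases after the annotated start, and has the letters CCAAT, or ATTGG on the other strand, in capitals at 6 places. A promoter sequence was at hand for 25 tested genes of the list, and 22 of them (88.0%) held CCAAT on either strand, against 42.3% of the 12090 tested genes with a promoter sequence. A match describes the letters and is not evidence of binding.
Top2a: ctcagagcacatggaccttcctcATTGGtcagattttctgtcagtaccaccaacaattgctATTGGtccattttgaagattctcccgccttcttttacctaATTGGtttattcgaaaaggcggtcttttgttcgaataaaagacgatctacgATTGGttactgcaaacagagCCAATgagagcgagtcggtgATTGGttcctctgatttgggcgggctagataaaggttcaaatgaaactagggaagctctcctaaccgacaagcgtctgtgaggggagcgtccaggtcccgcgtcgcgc

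Genes of growing axons and immature neurons gave the largest number of genes called lower of any list, though not the largest share. Of 39 tested, 26 were called lower and 0 higher, a share of 66.7% beside 20.6% of all tested genes. With all 50 libraries in 1 fit 16 were lower. The median was −0.14 in both genotypes together, −0.14 in WT and −0.15 in Het. *Marcksl1*, which encodes an actin-regulating substrate of protein kinase C, had 114, 138 and 161.8 CPM at P35 and 63.5, 78.8 and 92.5 at P70 (log2 fold change −0.84, standard error 0.061, adjusted p = 1.14e-08). All of its P70 libraries lay below its P35 libraries. *Cd24a*, a surface glycoprotein of young neurons, went from 8.83, 9.27 and 12.3 CPM to 4.44, 5.88 and 6.95 (log2 fold change −0.73, standard error 0.079, adjusted p = 2.27e-06), with no overlap. *Dcx* encodes doublecortin, a microtubule protein of migrating neurons, and ranged more widely, from 39.2, 52.7 and 71.6 CPM at P35 to 26.4, 32.9 and 47.9 at P70 (log2 fold change −0.55, standard error 0.11, adjusted p = 0.00137). Its ages overlapped, with 6 of 10 P70 libraries below every P35 library. Smaller falls were called for the tubulin genes *Tuba1a* (−0.27), *Tubb2a* (−0.27), *Tubb2b* (−0.19) and *Tubb3* (−0.17), the subunits of growing microtubules. *Igfbpl1*, a secreted protein of young neurons (−0.75), and *Draxin*, an axon guidance cue (−0.63), fell further, whereas *Gap43*, the growth cone protein (−0.01, adjusted p = 0.830), was not called.

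Genes of mature axons were called in both directions. In the list for neurofilaments and mature axons, 6 of 19 were called higher and 2 lower (median 0.02), against 0 higher and 1 lower with all 50 libraries in 1 fit. The share called was 42.1%, beside 20.6% of all tested genes. *Nefl*, the light neurofilament subunit, had 364, 383 and 430.3 CPM at P35 and 407, 435 and 482 at P70 (log2 fold change 0.18, standard error 0.033, adjusted p = 0.000708), and 6 of 10 P70 libraries were above every P35 library, although 32.8% of its exonic bases are shared with another annotated gene. *Nefm* and *Ina*, 2 further intermediate filament subunits, rose by 0.19 and 0.22. *Nfasc*, the adhesion molecule neurofascin of nodes and initial segments, fell from 339, 357 and 381 CPM to 253, 322 and 337, without overlap (log2 fold change −0.20, standard error 0.041, adjusted p = 0.00165). *Nefh*, the heavy neurofilament subunit (0.17, adjusted p = 0.0626), was not called.

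Synaptic genes did not move in 1 direction. Of 38 genes for synaptic vesicles and release, 5 were called higher and 6 lower (28.95%, beside 20.6% of all tested genes), and the median was −0.01. *Snap25*, a protein of the complex that fuses vesicles with the membrane, was the clearest, with 1794, 1892 and 1964 CPM at P35 and 2042, 2173 and 2428 at P70 (log2 fold change 0.23, standard error 0.027, adjusted p = 5.47e-06). Its ages did not overlap. *Vamp1* (0.22) and *Syt12* (0.21), a vesicle partner of *Snap25* and a synaptotagmin, also rose, while *Cplx3* (−0.22), *Rims1* (−0.16) and *Slc17a7* (−0.14) fell. Among glutamate receptors, 3 of 23 genes were called lower and 0 higher, namely the NMDA receptor subunits *Grin2d* (−0.19), *Grin3a* (−0.17) and *Grin1* (−0.10), and the share of 13.04% stands beside 20.6% of all tested genes.

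*Grin3a*, an NMDA receptor subunit of juvenile synapses, had 37.1, 40.3 and 44.5 CPM at P35 and 29.2, 36.4 and 40.1 at P70 (log2 fold change −0.17, standard error 0.045, adjusted p = 0.0101), and 7 of 10 P70 libraries lay below every P35 library. For *Grin2b*, the subunit that predominates early in life, levels were 433, 569 and 628 CPM at P35 and 388, 529 and 606 at P70 (log2 fold change −0.11, standard error 0.061, adjusted p = 0.199), which overlapped widely and did not pass the threshold. Beside the 20.6% of all tested genes, which was not tested against these lists, calls were made for GABA-A receptors and chloride transporters (1 higher and 2 lower of 23), potassium and sodium channels (4 and 3 of 40), receptors for modulatory transmitters (3 and 2 of 41), and interneuron markers (1 and 2 of 33). The modulatory list gave 0 to 5 higher and 2 to 4 lower with single libraries left out. With RNA integrity as a covariate it gave 0 higher and 3 lower. Parvalbumin (*Pvalb*, log2 fold change 0.09, adjusted p = 0.440) and somatostatin (*Sst*, 0.06, adjusted p = 0.341), markers of the 2 most numerous interneuron classes, were not called. In the list for cortical layers, 4 of 34 genes were called higher and 5 lower, among them *Rspo1*, a secreted Wnt agonist (0.52), and *Rprm*, a marker of deep-layer neurons (−0.31). The share called was 26.5%, and single libraries left out gave 2 to 5 higher and 5 to 8 lower. With all 50 libraries in 1 fit this list had no call and the vesicle list had 1, higher. *Neurod6*, a transcription factor of projection neurons (0.26, call lost in 18 of 35 alternative settings), rose. *Cux2*, of upper layers (−0.20), and *Mef2c*, a transcription factor of activity-dependent programs (−0.23), fell. No call was made for *Rorb*, of layer 4 (−0.12, adjusted p = 0.0761), *Fezf2*, of layer 5 (0.21, adjusted p = 0.112), or *Foxp2*, of layer 6 (0.02, adjusted p = 0.946).

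Among receptors and channels, calls were few and small, and with all 50 libraries in 1 fit only 1 channel gene and no receptor or interneuron gene of these lists was called. *Gabra3*, a GABA-A receptor subunit (0.14), rose, while *Gabra4*, another subunit (−0.15), and *Slc12a2*, a chloride importer (−0.15), fell, and the subunits *Gabra2* (0.00, adjusted p = 0.992) and *Gabrd* (0.01, adjusted p = 0.862) were not called. *Kcnd3*, a potassium channel subunit (0.21), and *Kcns1*, a silent modifier of potassium channels (0.18, call lost in 21 of 35 alternative settings), rose. The channel genes *Scn1a* (−0.09, adjusted p = 0.0998), *Kcnc1* (0.05, adjusted p = 0.341), *Kcna1* (0.07, adjusted p = 0.457) and *Scn4b* (0.07, adjusted p = 0.810), of fast-firing neurons, were not called. Among serotonin receptor genes, *Htr1a* (−0.36) was called lower, *Htr1b* (0.42) was called higher but lost its call in 18 of 35 alternative settings, and *Htr2a* (0.09, adjusted p = 0.262) was not called. In addition, 18.04% of the exonic bases of *Htr1b* are shared with another gene. *Adra2c*, an adrenergic receptor (0.17, call lost in 14 of 35 alternative settings), rose and *Oprl1*, the nociceptin receptor (−0.19), fell, while the cannabinoid receptor *Cnr1* (−0.07, adjusted p = 0.107), the NMDA receptor subunit *Grin2a* (−0.03, adjusted p = 0.744) and the vesicle calcium sensor *Syt2* (0.13, adjusted p = 0.200) were not called. Among interneuron genes *Crh*, a stress neuropeptide (0.41), rose, *Adarb2*, of interneurons from the caudal eminence (−0.30), and *Sox6*, of interneurons and precursors (−0.13, call lost in 12 of 35 alternative settings), fell. *Vip* (0.12, adjusted p = 0.212), *Prox1* (−0.09, adjusted p = 0.329) and *Gad1* (0.10, adjusted p = 0.271) were not called.

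**Figure D4:**
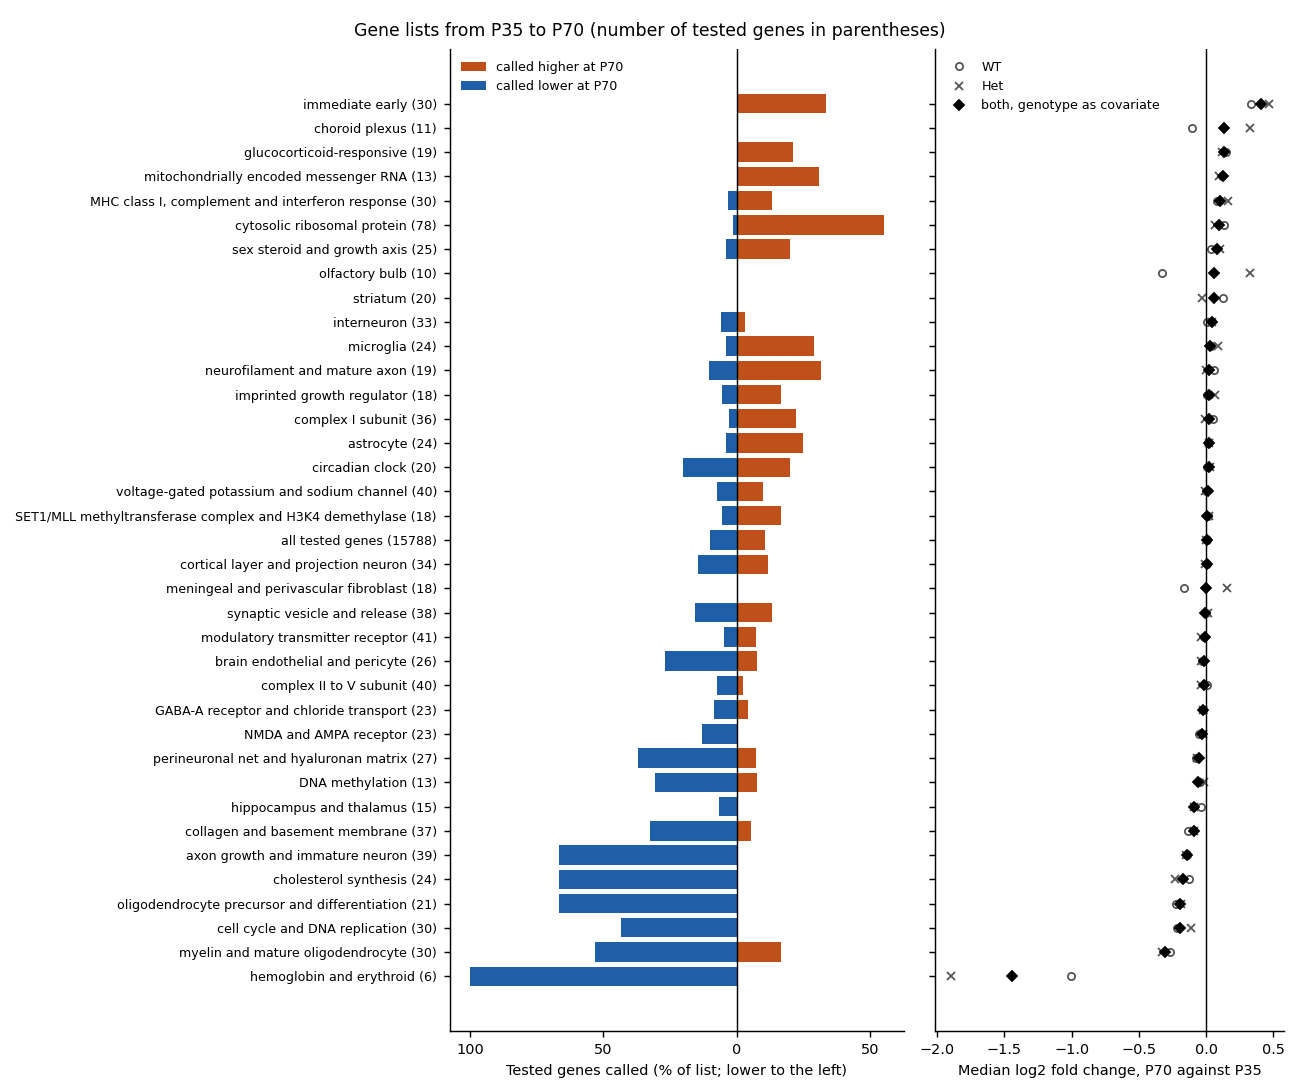
Share of the tested genes of each list called higher (right) or lower (left) at P70, in percent, beside the median log2 fold change of the list in both genotypes together, in WT and in Het, with all tested genes as 1 row. Lists for hemoglobin, myelin, cell cycle, oligodendrocyte precursors, cholesterol synthesis and axon growth hold the lowest medians, from −1.45 to −0.14, and the immediate early list the highest, 0.41.

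Cholesterol synthesis, a pathway that supplies sterol for membranes including myelin, had calls in the falling direction only. In this list 16 of 24 genes were called lower and 0 higher, with a median of −0.17, and 16 were also lower with all 50 libraries in 1 fit. The share called was 66.7%, beside 20.6% of all tested genes. The median was −0.13 in WT, where 2 genes were called lower, and −0.23 in Het, where 13 were. Beside these stand 1.96% of all tested genes called lower in WT and 3.91% in Het. An unadjusted interaction p under 0.05 was found for 3 of 24 genes, beside 451 of all 15788. The highest summed level was that of P35 Het 1 (2016 CPM), and its part in the Het median was not tested. *Sqle*, the squalene epoxidase of the committed sterol branch, went from 65.5, 74.6 and 95.4 CPM to 54.5, 59.7 and 63.3, with no overlap (log2 fold change −0.36, standard error 0.047, adjusted p = 1.89e-05). *Hmgcs1*, a synthase early in the pathway, which shares 12.1% of its exonic bases with another gene, had 251, 294 and 352 CPM at P35 and 219, 248 and 262 at P70 (log2 fold change −0.29, standard error 0.049, adjusted p = 0.000337), and 6 of 10 P70 libraries were below every P35 library. *Lss*, the lanosterol synthase (−0.37), fell too.

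The CCAAT motif was searched in this list too, since called members also fell. It was present on either strand in 16 of 17 cholesterol genes with a promoter sequence (94.1%), against 42.3% of tested genes. The promoter of *Hmgcs1* from RefSeq (GRCm38.p6), chr13:119690101-119690400 on the plus strand, has 4 copies, with CCAAT or ATTGG in capitals.
Hmgcs1: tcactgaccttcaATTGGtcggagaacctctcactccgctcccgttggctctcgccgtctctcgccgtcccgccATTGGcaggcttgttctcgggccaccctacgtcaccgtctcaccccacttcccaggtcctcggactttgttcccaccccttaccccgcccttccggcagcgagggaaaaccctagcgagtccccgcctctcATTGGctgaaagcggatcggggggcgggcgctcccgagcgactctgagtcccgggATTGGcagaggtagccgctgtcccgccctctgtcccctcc

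Components of the extracellular matrix and of blood vessels were called in both directions. For collagens and the basement membrane, 12 of 37 genes were called lower and 2 higher (median −0.09), a share of 37.8% beside 20.6% of all tested genes. Leaving out single libraries gave 8 to 12 lower, and all 50 libraries in 1 fit gave 1 lower and 2 higher. *Nid2*, a nidogen that links laminin to collagen in basement membranes, had 5.09, 6.86 and 8.75 CPM at P35 and 2.61, 4.01 and 4.84 at P70, without overlap (log2 fold change −0.78, standard error 0.11, adjusted p = 5.40e-05). The 2 members that rose, *P4ha1* (0.48) and *P4ha2* (0.33), are enzymes that hydroxylate collagen. *Col3a1* (−0.67) and *Col1a1* (−0.36), fibrillar collagens, *Nid1*, the second nidogen (−0.58), and *Lama4*, a laminin chain of vessels (−0.50), fell, and *Col4a1*, of basement membranes (−0.08, adjusted p = 0.346), was not called. *Col1a1* lost its call in 12 of 35 alternative settings. For endothelial cells and pericytes, 7 of 26 were called lower and 2 higher (median −0.01), with 1 lower when all 50 libraries were fitted together. Called genes were 34.6% of this list, beside 20.6% of all tested genes.

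The 2 receptors for vascular endothelial growth factor in that list went in opposite directions. *Kdr*, the signalling receptor, had 19.02, 24.4 and 28.1 CPM at P35 and 11.5, 16.98 and 24.4 at P70 (log2 fold change −0.43, standard error 0.097, adjusted p = 0.00368). *Flt1*, which also acts as a decoy, had 57.2, 63.6 and 69.3 CPM at P35 and 67.1, 75.0 and 91.0 at P70 (log2 fold change 0.24, standard error 0.049, adjusted p = 0.00141). Both overlapped between ages, with 6 of 10 P70 libraries below every P35 library for *Kdr* and 7 above every one for *Flt1*. The transporter genes *Slc16a1* (−0.39), *Slco1a4* (−0.33) and *Atp13a5* (−0.32), and *Pdgfrb*, the growth factor receptor of pericytes (−0.25), fell, and *Cldn5*, the tight junction protein (0.15, adjusted p = 0.254), was not called. Among called genes with a mean of at least 1 CPM at the higher age, the largest falls were those of globin and erythroid genes, *Lefty2*, an inhibitor of Nodal signalling (−1.45), and *Aplnr*, the apelin receptor of vessels (−1.45). The meningeal list summed to 179.8 to 276 CPM at P35 and 174 to 400.3 at P70, the highest value being that of P70 Het 2, where the collagen list was also highest (1292 CPM). Its part in the collagen result was not tested.

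Genes of perineuronal nets and the hyaluronan matrix gave 10 lower and 2 higher of 27 (median −0.05), and 5 lower and 0 higher with all 50 libraries in 1 fit. Called genes were 44.4% of the list, beside 20.6% of all tested genes. *Vcan*, the proteoglycan versican, had 20.97, 22.2 and 25.8 CPM at P35 and 15.8, 18.4 and 20.5 at P70, with no overlap (log2 fold change −0.28, standard error 0.042, adjusted p = 8.18e-05). *Hapln1*, a link protein that ties proteoglycans to hyaluronan, had 20.6, 22.4 and 29.4 CPM at P35 and 16.4, 17.5 and 20.7 at P70 (log2 fold change −0.33, standard error 0.058, adjusted p = 0.000468), and 9 of 10 P70 libraries lay below every P35 library. *Hapln4*, another link protein of these nets, rose by 0.28, and *Acan*, the core proteoglycan aggrecan, was not called (0.14, adjusted p = 0.443). *Tnc*, the matrix protein tenascin C (−0.53), and *Chst3*, a sulfotransferase of chondroitin (−0.37), fell, and *Tnr*, tenascin R (−0.03, adjusted p = 0.759), was not called.

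Astrocyte and microglia lists held more called genes that rose than fell. Astrocyte markers gave 6 higher and 1 lower of 24 (median 0.02), and microglia markers 7 and 1 of 24 (median 0.03). The shares called were 29.2% and 33.3%, beside 20.6% of all tested genes. With all 50 libraries in 1 fit only 1 astrocyte gene, called higher, and no microglia gene was called. *Glul*, the glutamine synthetase of astrocytes, had 1119, 1230.2 and 1289.9 CPM at P35 and 1252, 1458 and 1545 at P70 (log2 fold change 0.23, standard error 0.036, adjusted p = 0.000190), and 9 of 10 P70 libraries lay above every P35 library. *Gfap*, the filament of reactive astrocytes, was not called (−0.11, adjusted p = 0.223). *Clu*, the chaperone clusterin (0.14), and *Cldn10*, a claudin (0.17), rose, *Slc4a4*, a bicarbonate transporter (−0.14), fell, and *Aqp4*, the water channel (−0.05, adjusted p = 0.406), and *Aldh1l1*, a folate enzyme with 13.4% of its exonic bases shared with another gene (0.00, adjusted p = 0.941), were not called. *C1qa*, a chain of the first complement component made by microglia, had 29.1, 32.0 and 35.3 CPM at P35 and 35.05, 38.1 and 41.3 at P70 (log2 fold change 0.24, standard error 0.039, adjusted p = 0.000165), with 8 of 10 P70 libraries above every P35 library. The other 2 chains, *C1qb* (0.26) and *C1qc* (0.19), rose too. *P2ry12*, the nucleotide receptor of resting microglia, fell from 22.8, 26.1 and 28.2 CPM to 19.6, 22.5 and 25.5 (log2 fold change −0.20, standard error 0.045, adjusted p = 0.00288), with 7 of 10 P70 libraries below every P35 library. The microglial genes *Tmem119*, a membrane marker (0.24), and *Fcer1g*, an immunoreceptor chain (0.23), rose, and *Cx3cr1*, the fractalkine receptor (−0.04, adjusted p = 0.493), was not called.

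For class I major histocompatibility, complement and interferon response genes, 4 of 30 were called higher and 1 lower (median 0.10), a share of 16.7% beside 20.6% of all tested genes. The count of higher genes ran from 2 to 9 with single libraries left out and was 11 without both P70 libraries numbered 5. *H2-T23*, a non-classical class I gene, had 12.1, 15.3 and 21.5 CPM at P35 and 17.2, 22.8 and 29.8 at P70 (log2 fold change 0.53, standard error 0.083, adjusted p = 0.000157), and 9 of 10 P70 libraries lay above every P35 library. Class I genes resemble each other closely, so reads may be split between them and their levels are uncertain. *Gbp2*, an interferon-induced GTPase (0.38), *Xaf1*, an interferon-induced regulator of apoptosis (0.36), and *Tap2*, a peptide transporter with 18.5% of its exonic bases shared with another gene (0.20), rose. In 23 of 34 alternative settings *Gbp2* lost its call. No call was made for *H2-D1* (0.15, adjusted p = 0.134), *H2-K1* (0.16, adjusted p = 0.285) and *B2m* (0.16, adjusted p = 0.0554), the classical class I chains, or *C4b*, a complement component (0.21, adjusted p = 0.0667). The *H2-T23* promoter is shown because this gene had the largest change among called members of the list and its promoter holds a motif match. The letters GAAANNGAA, or TTCNNTTTC on the other strand, a core of interferon response elements, were in 10 of 22 genes of the list with a promoter sequence (45.5%), against 8.53% of the 12090 tested genes. The sequence from RefSeq (GRCm38.p6), chr17:36032652-36032951 on the minus strand, has 1 match, in capitals.
H2-T23: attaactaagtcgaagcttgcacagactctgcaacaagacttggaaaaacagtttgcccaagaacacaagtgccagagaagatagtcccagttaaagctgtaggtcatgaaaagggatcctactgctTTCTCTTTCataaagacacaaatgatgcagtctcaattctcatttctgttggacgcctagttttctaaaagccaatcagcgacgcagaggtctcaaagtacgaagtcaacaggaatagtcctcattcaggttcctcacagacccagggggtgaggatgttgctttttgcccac

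Immediate early genes, which neurons switch on within minutes of activity, had the largest upward median. Of 30 tested, 10 were called higher and 0 lower (median 0.41), and all 30 estimates were above 0. The share called was 33.3%, beside 20.6% of all tested genes. The spread between mice was wide, and the count of higher genes ran from 6 to 13 with single libraries left out. It was 6 with RNA integrity as a covariate and 18 without both P70 libraries numbered 5. Summed levels were 1139.7, 1681 and 2337 CPM at P35 and 1293, 2395 and 3391 at P70, with P70 WT 5 (1293 CPM) and P70 Het 5 (1486 CPM) as the lowest P70 libraries, the same 2 that lay among the P35 libraries on component 1. *Homer1* was the most abundant gene (15.3% of the sum). *Egr3* (0.74) and *Klf4* (0.60), transcription factors, rose, and the estimates for *Egr1* (0.53, adjusted p = 0.105), *Fos* (0.53, adjusted p = 0.194) and *Npas4* (0.42, adjusted p = 0.101), also transcription factors, missed the threshold.

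*Fosb*, a subunit of the AP-1 transcription factor, had 7.28, 10.4 and 15.97 CPM at P35 and 12.4, 25.6 and 33.0 at P70 (log2 fold change 1.13, standard error 0.16, adjusted p = 4.32e-05), and 9 of 10 P70 libraries lay above every P35 library. *Ptgs2*, an inducible cyclooxygenase, had 7.09, 9.04 and 11.2 CPM at P35 and 10.8, 15.9 and 19.6 at P70 (log2 fold change 0.69, standard error 0.11, adjusted p = 0.000108), where 9 of 10 libraries were above every P35 library. For *Arc*, a regulator of synaptic receptors, levels were 27.4, 130.9 and 268 CPM at P35 and 52.4, 232 and 515 at P70 (log2 fold change 0.90, standard error 0.40, adjusted p = 0.116), and the ages overlapped and it was not called. With the mean of this list as a covariate, a setting chosen after the data were seen, 1631 genes were called between the ages in place of 3256, with 771 higher and 860 lower. The list was higher at P70, so the covariate also removes change that goes with age, and the part of immediate early expression in the other results was not tested.

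Genes that respond to glucocorticoids gave 4 higher and 0 lower of 19 (median 0.14), a share of 21.1% beside 20.6% of all tested genes. Single libraries left out gave 2 to 8 higher, and 10 were higher without both P70 libraries numbered 5. The largest fold change of any called gene that rose was that of *Lcn2*, a secreted iron-carrier binding protein induced in stress and inflammation. Its levels were 0.0766, 0.432 and 2.25 CPM at P35 and 0.0255, 2.68 and 11.1 at P70 (log2 fold change 2.27, standard error 0.66, adjusted p = 0.0177). The lowest P70 library lay below all P35 libraries and 6 lay above them, and without P70 Het 2 the log2 fold change of Lcn2 was 1.95 with an adjusted p of 0.0525. The call of *Lcn2* was lost in 6 of 34 alternative settings, among them limma-voom and RNA integrity as a covariate. *Plin4* (log2 fold change 1.45), a lipid droplet coat protein, and *Xdh* (1.33), the purine-degrading xanthine dehydrogenase, were also among the largest. *Hspa1b*, an inducible heat shock protein whose near-identical copy *Hspa1a* makes its own level uncertain, had 4.65, 5.91 and 10.02 CPM at P35 and 8.44, 16.2 and 27.4 at P70 (log2 fold change 1.31, standard error 0.21, adjusted p = 0.000160), and 8 of 10 P70 libraries lay above every P35 library. *Pdk4*, a kinase that restrains pyruvate use (0.41), and *Gpd1*, a glycerol phosphate dehydrogenase with 12.97% of its exonic bases shared with another gene (0.14), rose. Of 35 alternative settings, 21 lost the call of *Gpd1*. *Fkbp5* (0.20, adjusted p = 0.119), *Sgk1* (0.09, adjusted p = 0.408) and *Tsc22d3* (0.30, adjusted p = 0.0678), direct targets of the receptor, were not called.

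Circadian clock genes were called in both directions, 4 higher and 4 lower of 20, beside 20.6% of all tested genes called. The other 12 were not called. *Arntl*, the activator of the clock also called Bmal1, had 22.2, 28.4 and 32.6 CPM at P35 and 32.4, 43.03 and 49.6 at P70 (log2 fold change 0.57, standard error 0.079, adjusted p = 4.39e-05), and 9 of 10 P70 libraries lay above every P35 library. *Dbp*, a clock-controlled transcription factor, had 72.7, 110.0 and 135 CPM at P35 and 38.9, 55.7 and 87.5 at P70 (log2 fold change −0.80, standard error 0.15, adjusted p = 0.000830), with 7 of 10 P70 libraries below every P35 library and 18.01% of its exonic bases shared with another gene. *Ciart*, a repressor of the clock, had 8.68, 13.7 and 20.4 CPM at P35 and 5.76, 7.77 and 10.3 at P70 (log2 fold change −0.78, standard error 0.14, adjusted p = 0.000502), and 8 of 10 P70 libraries were below every P35 library. *Npas2* (0.22) and *Clock* (0.14), partners of *Arntl*, rose, and *Per3* (−0.26) and *Usp2* (−0.27) fell. *Nfil3*, a repressor (0.54), rose, and *Per2* (0.42, adjusted p = 0.227) and *Nr1d1* (−0.07, adjusted p = 0.227), repressors of the core loop, were not called. The hour of collection is not in the labels used here, so its part was not tested.

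The promoter of *Ciart* is shown for its E-boxes, the site bound by the activators of the clock. The letters CACGTG, which read the same on both strands, were in 5 of 18 clock genes with a promoter sequence (27.8%), against 1331 of the 12090 tested genes. Of the 8 called clock genes with a promoter sequence, *Ciart* alone held it. In the sequence from RefSeq (GRCm38.p6), chr3:95882179-95882478 on the minus strand, 3 matches are in capitals.
Ciart: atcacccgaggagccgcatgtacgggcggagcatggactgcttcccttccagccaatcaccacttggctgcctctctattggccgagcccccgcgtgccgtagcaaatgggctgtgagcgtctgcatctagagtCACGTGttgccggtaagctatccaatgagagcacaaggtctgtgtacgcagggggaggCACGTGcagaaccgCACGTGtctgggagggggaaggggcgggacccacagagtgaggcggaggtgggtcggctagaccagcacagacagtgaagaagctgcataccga

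Receptors and enzymes of the sex steroid and growth axis gave 5 higher and 1 lower of 25 (median 0.08), which is 24.0% called beside 20.6% of all tested genes, and 1 higher and 1 lower with all 50 libraries in 1 fit. *Srd5a1*, the 5-alpha reductase that converts testosterone and progesterone to more active steroids, had 10.03, 11.3 and 13.6 CPM at P35 and 6.39, 7.69 and 8.699 at P70 (log2 fold change −0.57, standard error 0.062, adjusted p = 2.81e-06). Its ages were separate, although 16.4% of its exonic bases are shared with another gene. *Esr1*, an estrogen receptor, was not called (0.15, adjusted p = 0.186). *Igf1r*, the receptor for insulin-like growth factor 1 (0.21), and *Igfbp6*, a binding protein of the related factor 2 (0.30), rose, and *Igf1*, the ligand (−0.06, adjusted p = 0.648), and *Hr*, a nuclear corepressor (−0.10, adjusted p = 0.3001), were not called.

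Hemoglobin and erythroid genes, which in brain come from blood left in the vessels and in small part from neurons and glia, had the lowest median of all lists. All 6 of 6 tested genes were called lower (median −1.45), beside 20.6% of all tested genes called. The list summed to 163.1, 242 and 526.4 CPM at P35 and 53.9, 97.5 and 179.9 at P70. The highest P35 value was that of P35 Het 1, with the next highest at 334.5 CPM, and its part in the Het fall was not tested. *Hbb-bs*, an adult beta globin and the most abundant gene (49.0% of the sum), had 80.3, 118 and 248 CPM at P35 and 23.4, 48.2 and 89.3 at P70 (log2 fold change −1.41, standard error 0.23, adjusted p = 0.000198). *Alas2*, the first enzyme of heme synthesis in red cells, with 15.5% of its exonic bases shared with another gene, had 4.96, 7.89 and 16.8 CPM at P35 and 1.65, 2.68 and 5.92 at P70 (log2 fold change −1.48, standard error 0.24, adjusted p = 0.000223). *Slc4a1*, the anion exchanger of red cells (−1.91), *Hbb-bt* (−1.52), another beta globin, and *Hba-a1* (−1.35), an alpha globin, fell too. The globin genes have near-identical copies, and reads may be split between them. For both genes the ages overlapped, with 8 and 9 of 10 P70 libraries below every P35 library. The median of the list was −1.002 in WT, where 0 genes were called, and −1.90 in Het, where all 6 were called lower. Beside these stand 1.96% of all tested genes called lower in WT and 3.91% in Het. An unadjusted interaction p under 0.05 was found for 5 of 6 genes, beside 451 of all 15788, but none passed after adjustment over all genes. How much blood was left in each dissection was not measured, and its part in other results was not tested.

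Among cytosolic ribosomal protein genes, nearly all calls were small rises. Of 78 tested, 43 were called higher and 1 lower, with a median of 0.10, and under scaling by library size alone 28 were called higher and 1 lower. The share called was 56.4%, beside 20.6% of all tested genes. Leaving out single libraries gave 31 to 48 higher, and all 50 libraries in 1 fit 10. In WT 27 were called higher (median 0.13) and in Het 2 (median 0.06), beside 2.12% and 3.67% of all tested genes called higher. An unadjusted interaction p under 0.05 was found for 8 of 78, beside 451 of all 15788. *Rpl37* (0.21), *Rpl38* (0.18), *Rpl26* (0.16) and *Rps6* (0.10), proteins of both subunits, rose, and *Rplp0*, a stalk protein (−0.02, adjusted p = 0.681), was not called. The highest value of the list was the 11382 CPM of P70 WT 4.

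Messenger RNAs encoded by mitochondrial DNA gave 4 higher and 0 lower of 13 (30.8% called, median 0.12), and 2 to 5 higher with single libraries left out. The summed level was 25410.2 to 28632 CPM at P35, and at P70 it was highest in P70 WT 4 (33013), P70 Het 5 (32465) and P70 WT 5 (30293), with the other 7 libraries from 26245 to 29169. *mt-Nd2*, a subunit of complex I, had 1963, 2099.6 and 2321 CPM at P35 and 2265, 2482 and 2868 at P70 (log2 fold change 0.25, standard error 0.042, adjusted p = 0.000337), with 7 of 10 P70 libraries above every P35 library. Nuclear subunits of complex I gave 8 higher and 1 lower of 36 (25.0% called, median 0.02), with 6 to 7 higher when single libraries were left out. In WT 3 were called higher (median 0.05) and in Het 0 (median −0.01), beside 2.12% and 3.67% of all tested genes called higher. An unadjusted interaction p under 0.05 was found for 3 of 36, beside 451 of all 15788, and none passed after adjustment. The summed level was highest in P70 WT 4 (2634 CPM). Nuclear subunits of complexes II to V gave 1 and 3 of 40 annotated genes, 2 of which share a symbol (median −0.02), beside 20.6% of all tested genes. Called higher were the mitochondrial genes *mt-Co1* (0.11), *mt-Nd4* (0.13) and *mt-Cytb* (0.11), the complex I genes *Ndufb10* (0.14), *Ndufa5* (0.14), *Ndufb3* (0.13) and *Ndufa12* (0.13), and *Sdha*, of complex II (0.07). The calls of *mt-Cytb* and *mt-Nd4* were lost in 26 of 35 and 15 of 35 alternative settings. *Atp5g1* (−0.12), *Uqcr11* (−0.12) and *Cox6b1* (−0.11), of later complexes, were called lower, and no call was made for *mt-Nd1* (0.10, adjusted p = 0.172), *Ndufa3* (−0.06, adjusted p = 0.194), *Ndufs1* (−0.02, adjusted p = 0.574), *Cox4i1* (−0.05, adjusted p = 0.244) or *Atp5b* (0.03, adjusted p = 0.406).

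Among chromatin genes, DNA methylation gave 4 lower and 1 higher of 13, a share of 38.5% beside 20.6% of all tested genes. *Tet1*, which oxidises 5-methylcytosine, had 14.8, 17.4 and 19.3 CPM at P35 and 10.8, 11.9 and 13.5 at P70, with no overlap (log2 fold change −0.53, standard error 0.048, adjusted p = 2.19e-07). *Dnmt3a*, the methyltransferase that writes methylation in maturing neurons, had 106, 125 and 143 CPM at P35 and 94.7, 101.8 and 117 at P70 (log2 fold change −0.27, standard error 0.047, adjusted p = 0.000513), and 6 of 10 P70 libraries lay below every P35 library. *Uhrf1*, which guides maintenance methylation (−0.45), and *Tdg*, a DNA glycosylase (−0.16), fell. The list of SET1/MLL complexes and demethylases of histone H3 lysine 4, to which *Setd1a* belongs, gave 3 higher and 1 lower of 18. The member that fell, *Kdm1a*, a demethylase of that mark, had 62.0, 65.1 and 66.7 CPM at P35 and 52.0, 56.2 and 60.9 at P70, without overlap (log2 fold change −0.20, standard error 0.027, adjusted p = 3.12e-05). The members that rose were *Kmt2a*, a methyltransferase of this family (0.28), and *Rbbp5* (0.11) and *Cxxc1* (0.11), subunits of its complexes. Imprinted growth regulators gave 3 higher and 1 lower of 18 (median 0.02). For this list and the SET1/MLL list alike, 22.2% of tested genes were called, beside 20.6% of all tested genes, and with all 50 libraries in 1 fit no imprinted gene was called. *Peg10*, a retrotransposon-derived gene (0.38), *Rasgrf1*, an exchange factor for Ras (0.16), and *Sgce*, a sarcoglycan (0.12), rose, *Mest*, a hydrolase with 23.1% of its exonic bases shared with another gene (−0.10), fell, and *Plagl1* (−0.05, adjusted p = 0.513), *Peg3* (0.02, adjusted p = 0.806) and *Dlk1* (0.11, adjusted p = 0.827) were not called. Of 35 alternative settings, *Peg10* lost its call in 11, *Sgce* in 21 and *Mest* in 20.

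Set beside all 5 ages, lists differed in how the step from P35 to P70 compared with earlier ones. The sums in this paragraph are relative to library totals without TMM scaling. They also count list members that were not tested, so they differ from the sums given above. Values at E14 also differ from later ones in dissection, which took frontal brain regions of embryos. The hemoglobin list had 156 ± 59.9 CPM (SD, n = 10) at P7, 277 ± 102.2 at P35 and 106 ± 45.3 at P70, so its last step was the larger of these. The myelin list summed to 585 ± 506 CPM (SD, n = 10) at P7, 6533 ± 576 at P35 and 4908 ± 391 at P70, so that it was highest at P35. The precursor list was highest at P7, with 954 ± 95.6 CPM, and then 757 ± 34.9 and 666 ± 27.5. Axon growth genes went from 34385 ± 2393 CPM at P7 to 8267 ± 259 at P35 and 7598 ± 165 at P70, and cell cycle genes from 3615 ± 602 at E14 to 188 ± 6.10 and 173 ± 8.86. Ribosomal protein genes had fallen to 9712 ± 302 CPM at P35 from 25534 ± 3408 at E14, and stood at 10228 ± 541 at P70. Synaptic vesicle genes had 10488 ± 508 CPM at P7, 17558 ± 385 at P35 and 17529 ± 494 at P70, a difference between the last 2 ages smaller than their SD. With TMM scaling the direction was the other, with 17474 ± 462 CPM at P35 and 17621 ± 708 at P70.

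**Figure D5:**
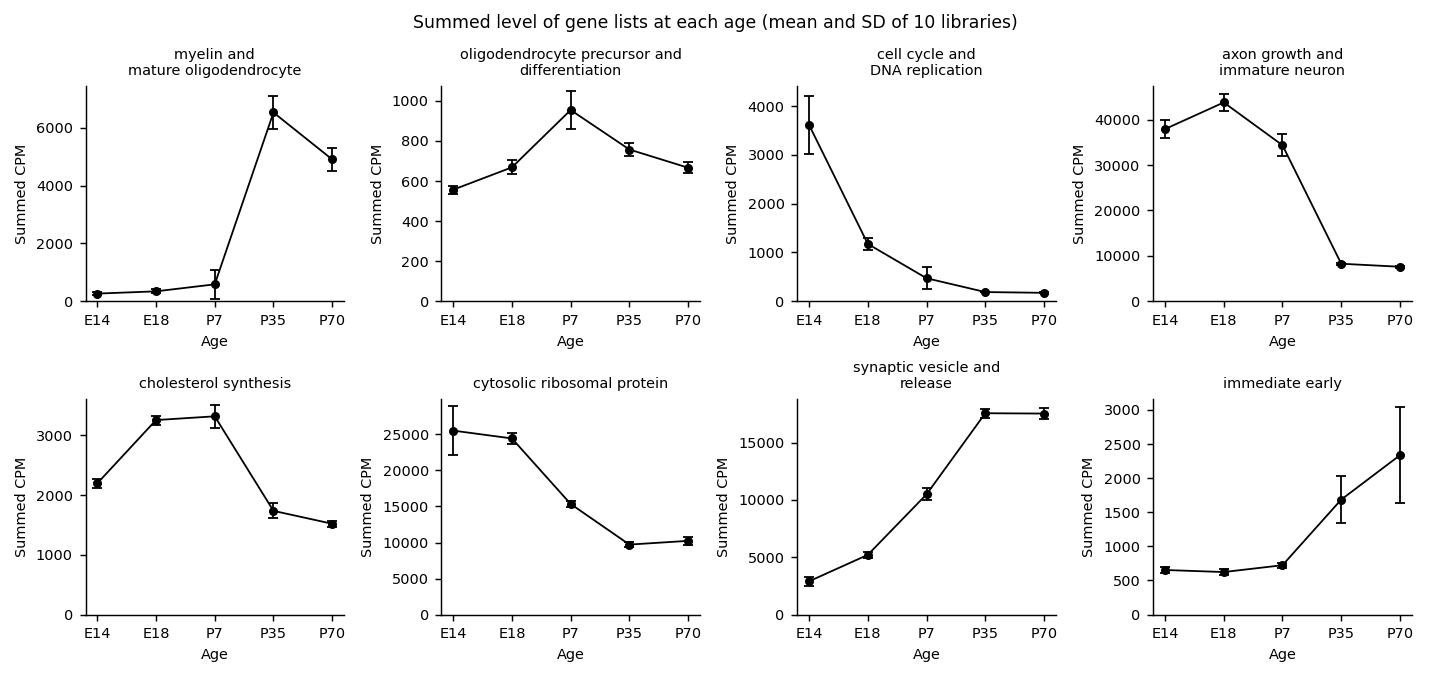
Summed level in CPM (vertical, from 0) of 8 gene lists at E14, E18, P7, P35 and P70, as the mean and SD of the 10 libraries of each age. CPM here are relative to library totals, without TMM scaling. The myelin list is highest at P35 and lower at P70, while the axon growth and cell cycle lists are near their lowest levels by P35.

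The 5 genes with the smallest interaction p are described here, although none passed after adjustment. *Clec10a*, a lectin of macrophages, had 0.723 ± 0.0971 CPM (SD, n = 5) in P35 WT, 0.486 ± 0.111 in P70 WT, 0.711 ± 0.107 in P35 Het and 1.15 ± 0.232 in P70 Het. The log2 fold change of age in Het minus that in WT was 1.26 (standard error 0.28, edgeR adjusted p = 1.000). *Wnt5a*, a secreted Wnt ligand, had 11.6 ± 1.301, 8.79 ± 0.616, 10.3 ± 0.735 and 10.9 ± 1.43 CPM in the same order, with a difference of 0.49 (standard error 0.13). *Piwil1*, *Pkdrej* and *Pex14* followed, with differences of −2.67, −1.06 and −0.20. *Piwil1* encodes a Piwi protein of the germline, *Pkdrej* a protein of sperm and *Pex14* a peroxisomal import protein. At P35, mean levels of *Clec10a*, *Piwil1* and *Pkdrej* were 0.717, 0.280 and 1.297 CPM, so their estimates rest on few counts.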

How the data were processed

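Per the labels, RNA of frontal cortex was selected by poly-A tail and sequenced as 150 bp read pairs in a single batch. The authors trimmed reads with Trimmomatic, checked them with FastQC, aligned them to GRCm38 with STAR and made the deposited counts with featureCounts, without regard to strand and with a fragment over 2 genes counted for both. The labels give no versions of these tools.

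From the counts of 20 libraries, protein-coding genes of GENCODE vM21 with at least 10 counts at the median library size in 5 libraries were tested (15788 of 21974). The tests used edgeR 4.0.16 (TMM scaling, quasi-likelihood, Benjamini-Hochberg adjustment) in R 4.3.3, with an age term and genotype as a covariate, an age term in each genotype, and their interaction. Tables and figures used Python 3.11.15, pandas 2.3.3, scipy 1.17.1 and matplotlib 3.10.9. Scripts were tested on simulated data. The depth of 37147164 to 43907318 counts puts 1 CPM at about 40 counts, so counting noise is small except for the rarest genes, and the spread between 5 mice per group sets the precision. RPKM used exon lengths of the annotation. Each earlier interval was fitted alone.

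Named are the 12 genes with the smallest p in each direction with the same sign in WT and Het, the 6 with the largest fold change in each direction at a mean of at least 1 CPM, for each of 36 lists up to 4 called members with the largest change and its key markers, the 5 with the smallest interaction p, and *Setd1a*. Not every gene of this rule is named, some genes are not reported here, and further list members were named after their values were seen. Members and lists were chosen with earlier results of these data known. Alternatives were DESeq2 1.42.0, limma-voom (limma 3.58.1), other scaling and filters, all annotated genes, RNA integrity or striatal markers as a covariate, a replicate block, all 50 libraries in 1 fit, other thresholds, and each library left out.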

Additional observations from a re-analysis of the deposited data

Results flagged for a closer look

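Single libraries were compared with the other 9 of their age by the gap to the nearest value over the range, for component 1, the genes shown by library and the sums of the lists. Of 166 groups tested, 18 had a library far from the others, and chance alone flags about 1 in 20. Among genes, the values far from the others were 12.3 CPM of *Cd24a* in P35 WT 4, 5.46 CPM of *Mki67* in P35 Het 5, 95.4 CPM of *Sqle* in P35 Het 1, 25.8 CPM of *Vcan* and 29.4 CPM of *Hapln1* in P35 WT 5, 2.25 CPM of *Lcn2* in P35 Het 5, and 248 CPM of *Hbb-bs* in P35 Het 1, all high. The value of *Grin2b* in P35 WT 2, 433 CPM, was low.

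Among list sums, P70 WT 4 was high for ribosomal proteins (11382 CPM), complex I (2634 CPM) and complexes II to V (7074 CPM). P70 Het 2 was high for meningeal fibroblasts (400.3 CPM) and collagens (1292 CPM), P70 Het 3 for choroid plexus (43.4 CPM), P35 WT 4 for the olfactory bulb (309 CPM), and P35 Het 1 for hemoglobin (526.4 CPM). P35 Het 1 was low for oligodendrocyte precursors (670.1 CPM), and P70 WT 3 was low for the cell cycle (155.9 CPM). Why these libraries differ was not tested.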

How the results depend on the processing

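The count of 3256 genes changed with age became 3665 with DESeq2, 3224 with limma-voom, 2454 with RNA integrity as a covariate, 1591 with all 50 libraries in 1 fit, 1512 at an adjusted p under 0.01, and 86 (24 higher, 62 lower) when a fold change over 1.2 was tested for. Leaving out single libraries gave 2685 to 3918. In WT, 644 genes became 1008 with DESeq2, 278 with RNA integrity, 171 with all 50 libraries, 175 at an adjusted p under 0.01 and 19 at a fold change over 1.2, and single libraries left out gave 337 (P35 WT 1) to 878 (P70 WT 5), with 368 without P35 WT 3, 345 without P35 WT 5 and 394 without P70 WT 2. In Het, 1197 became 487, 281 and 33 in the last 3 of these settings, and single libraries left out gave 556 (P70 Het 3) to 2316 (P70 Het 5), with 655, 647 and 595 without P35 Het 1, 2 and 5, and 692, 791 and 590 without P70 Het 1, 2 and 4. The interaction gave 0 in every setting. Scaling by library size alone gave 3222 (1338 higher, 1884 lower) for age, of which 41.5% were higher in place of 51.1%, and 620 (244 higher, 376 lower) in WT, of which 39.4% were higher in place of 52.0%. Earlier intervals gave 11188, 12297 and 12850 under that scaling. A replicate block gave 3831 genes for age, 948 in WT and 1733 in Het. The labels do not say what libraries of the same number share. Mean correlations of the deviations of same-numbered libraries ran from 0.00167 to 0.126. For libraries of other numbers they ran from −0.0316 to −0.00081. The highest same-numbered pair, of P70 WT and P70 Het, reached 0.419. At most 4 of 5 pairs passed 0.1, and not every library correlated best with its own number. Whether mice of the same number were littermates was not tested. Chosen after seeing the data were 2 settings. With both P70 libraries numbered 5 left out, the counts were 4575 for age, 1272 in WT and 2577 in Het. With the immediate early list as a covariate they were 1631, 463 and 376, and there the log2 fold change of *Arc* was −0.36 (adjusted p = 0.0403) in place of 0.90, the only named gene to change sign with a call. The covariate is the mean of a list that holds *Arc*, so the 2 are not independent. Why the estimate of *Arc* went past 0 was not tested. Estimates of genes not called changed sign in other settings too. Of the 232 genes of the naming rule, 75 were called higher, 83 lower and 74 not at all. Calls lost numbered 120 at a fold change over 1.2, 81 with all 50 libraries, 44 at an adjusted p under 0.01, 40 with the immediate early covariate and 18 with RNA integrity. Calls of genes near the threshold were lost in many settings: *mt-Cytb* in 26 of 35, *Gbp2* in 23 of 34, *Opalin* in 22 of 35, *Sgce* in 21 of 35, *Kcns1* in 21 of 35, *Gpd1* in 21 of 35, *Mest* in 20 of 35, *Htr1b* in 18 of 35, *Neurod6* in 18 of 35, *mt-Nd4* in 15 of 35, *Adra2c* in 14 of 35, *Sox6* in 12 of 35, *Col1a1* in 12 of 35 and *Peg10* in 11 of 35. The cause of these shifts was not tested.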
